A study of Mus musculus with 12 samples.

Results

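Macrophages make, take up and export cholesterol, and 32 genes of these pathways were followed by symbol among the 16920 genes of each library. They comprised 8 enzymes of the mevalonate arm, which runs from acetyl-CoA to the farnesyl and geranylgeranyl diphosphates, 12 enzymes that turn farnesyl diphosphate into squalene and then cholesterol, 6 genes of sterol sensing and transport, 5 genes of the liver X receptors (LXR) and efflux, and Ch25h, which makes an oxysterol. The 32 do not cover every enzyme of the pathway. All 32 passed the filter on low counts that left 12064 genes for testing.

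The libraries came from cultured peritoneal macrophages of C57BL/6 mice aged 6 to 10 weeks. Wild-type (WT) cells and cells labelled as Ythdf1 knockout (KO), from mice edited with CRISPR/Cas9 in every tissue, received PBS or lipopolysaccharide (LPS, a bacterial cell wall component, 1 µg/mL) for 6 h, with 3 libraries in each of the 4 groups. YTHDF1 is a cytoplasmic reader of methylated adenosine in mRNA. The labels call the libraries of a group biological replicates, and no source used here states how many mice gave the cells of each library.

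Total counts per library were close, from 21546300 to 22017000. Ythdf1 mRNA was not lower in the KO libraries: it stood at 41.9 to 44.97 CPM (counts scaled to a common library total) in WT PBS, 55.4 to 58.1 in KO PBS, 194 to 212 in WT LPS and 192 to 205 in KO LPS. Within these libraries the genotype comparisons thus rest on the labels alone, and the libraries are called KO-labelled below. The paper reports tail genotyping of the knockout line and YTHDF1 immunoblots of liver and spleen from chimeric mice, which are not the cells sequenced here. Within WT LPS, replicate 1 stood apart from its group, with a mean chi-square per gene of 30.5 and 23.7 against the others, which differed from each other by 2.95. Replicates 2 and 3 of KO LPS differed by 15.3 and the other pairs of that group by 5.43 and 6.87, against 2.73 to 4.57 within the PBS groups. The 8 macrophage markers summed to between 17170 and 19943 CPM in all 12 libraries. Among them, Mertk was lower in KO LPS than in WT LPS, with a log2 fold change of -1.24. The sum thus does not show that each marker was constant. The 1000 most abundant genes of each library took 65.4% to 66.9% of the counts in PBS and 73.02% to 73.99% in LPS, and the scaling factors (TMM, trimmed mean of M values) were 1.26 to 1.31 in PBS and 0.744 to 0.808 in LPS. Under this scaling the median log2 fold change of all genes was -0.05 for LPS in WT and -0.04 in KO-labelled cells. Scaling by library totals alone shifted those medians by -0.66 and -0.80, and upper-quartile scaling by -0.31 and -0.36.

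Cells hold their sterol level with a pair of opposed systems. When sterol is low in the endoplasmic reticulum, SCAP carries the membrane-bound factor SREBP2 to the Golgi, where it is cut and released to switch on the synthesis enzymes, and the INSIG proteins hold it back when sterol is high. When oxysterols accumulate, the nuclear receptors LXRα and LXRβ (Nr1h3 and Nr1h2) switch on the exporters Abca1 and Abcg1. In macrophages, LPS is known to alter both systems through interferon and oxysterol signals.

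SREBP2 acts on target promoters together with NF-Y, which binds CCAAT, and Sp1, which binds GGGCGG. RefSeq start sites (GRCm38.p6) were matched for 27 of the 32 genes, and motifs were searched on both strands in the 250 bases before the start. CCAAT was present in 16 of the 17 synthesis enzymes with a window, or 94.1%, against 41% of the 9651 tested genes with a window. Its nearest copy lay between 12 and 136 bases before the start. GGGCGG was present in 15 of the 17 enzymes, or 88.2%, against 63.2% of tested genes. The sterol element searched as TCACNCCAC was found in 1 member, Hmgcs1, and in 1.15% of tested genes. Among the 4 LXR and efflux genes with a window, CCAAT was present in 1, Mylip. The windows below show enzymes that fell with LPS in both genotype labels (Dhcr7, Lss) and enzymes whose response was more positive in KO-labelled cells (Hmgcs1, Cyp51, Hsd17b7), with CCAAT (or ATTGG, its reverse complement) in capitals, and the sterol element of Hmgcs1 in capitals in the first.
Hmgcs1 (chr13:119690184-119690252, plus strand): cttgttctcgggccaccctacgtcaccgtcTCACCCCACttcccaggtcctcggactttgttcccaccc
Hmgcs1 (chr13:119690276-119690340, plus strand): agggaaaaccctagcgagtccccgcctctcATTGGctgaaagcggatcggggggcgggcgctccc
Cyp51 (chr5:4104698-4104756, minus strand): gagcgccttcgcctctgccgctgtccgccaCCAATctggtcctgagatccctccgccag
Hsd17b7 (chr1:169969206-169969247, minus strand): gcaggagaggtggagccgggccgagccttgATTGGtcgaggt
Lss (chr10:76531513-76531577, plus strand): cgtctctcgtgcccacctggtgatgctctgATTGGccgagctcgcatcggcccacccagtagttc
Dhcr7 (chr7:143830135-143830199, plus strand): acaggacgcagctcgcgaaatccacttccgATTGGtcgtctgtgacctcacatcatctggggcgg
The capitals are a match of letters, not a measured binding site. Each window was cut around its match, so the presence of a match in it does not compare the kinds of enzyme.

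Under TMM scaling, LPS did not move all synthesis enzymes in 1 direction in WT cells. Of the 20 enzymes, 11 fell, 4 rose and 5 did not pass an adjusted p of 0.05 (edgeR quasi-likelihood test, Benjamini-Hochberg over all tested genes). The 11 that fell stayed lower under every scaling tried, while the 4 that rose (Hmgcs1, Ggps1, Fdft1 and Hsd17b7) turned to lower values under library totals alone, and Hmgcs1 and Hsd17b7 did not pass under upper-quartile scaling. The split thus depends on the scaling: with upper-quartile scaling 15 enzymes were called lower and 2 higher, and with totals alone all 20 values were negative, 18 were called lower and none higher. All tested genes shifted too: 26.1% were called higher and 54.0% lower with upper-quartile scaling, and 18.4% and 68.4% with totals alone. The median log2 fold change of the enzymes was -0.24. Of all 32 members, 10 rose and 13 fell, and with upper-quartile scaling the split was 5 and 21. With totals alone it was 3 and 25. Among all tested genes 36.5% rose and 40.2% fell, so the count over all members was close to the background.

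In KO-labelled cells the balance of enzyme calls was different: 10 rose, 6 fell and 4 did not pass, with a median log2 fold change of 0.21. The 6 that fell (Mvk, Mvd, Lss, Tm7sf2, Ebp and Dhcr7) had fallen in WT too and stayed lower under every scaling. With upper-quartile scaling the enzyme calls were 7 higher and 10 lower, and with totals alone 4 higher and 14 lower, where 27.7% and 18.3% of all tested genes were higher and 54.4% and 69.5% lower. Of the 10 that rose, Hmgcs1, Idi1, Fdft1 and Hsd17b7 kept their call under every scaling, whereas Acat2 and Sc5d turned lower under upper-quartile scaling, where Fdps lost its call, and, with Fdps, Ggps1 and Msmo1, under library totals alone, where Cyp51 lost its call. Over all 32 members, 15 rose and 10 fell, against 12 and 17 with upper-quartile scaling and 6 and 22 with totals alone. The background was 38.8% of tested genes higher and 41.1% lower. Acat2, Msmo1 and Sc5d fell in WT and rose in KO-labelled cells.

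**Figure D1:**
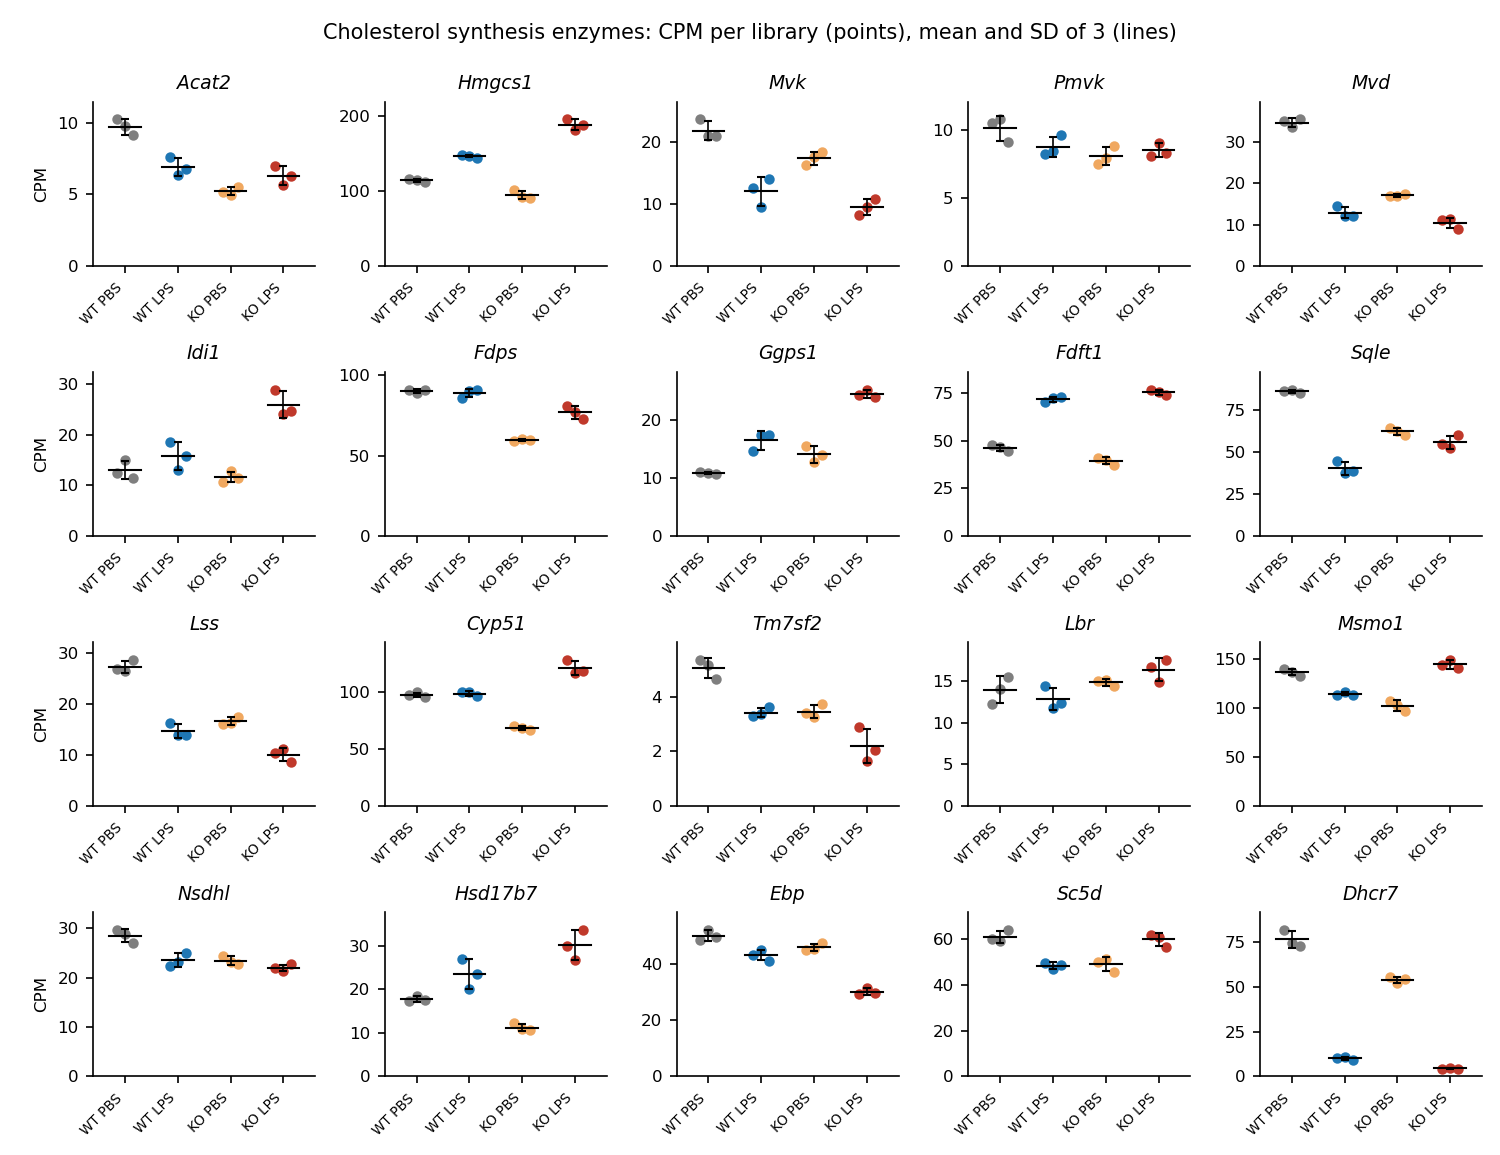
CPM (TMM-scaled) of the 20 synthesis enzymes on linear axes from 0; points are libraries, bars the mean and SD of 3 per group. Dhcr7 drops in all LPS libraries, and the means of Hmgcs1, Idi1 and Hsd17b7 are highest in KO LPS; under library totals alone the rise of Hmgcs1 and Hsd17b7 in WT turns lower.

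The enzyme that LPS changed most was that of the last step. Dhcr7 (chr7:143823167-143848410), the reductase that turns 7-dehydrocholesterol into cholesterol, fell under LPS in both genotype labels. Its level was 81.9, 74.6 and 73.2 CPM in the WT PBS libraries and 10.4, 10.9 and 9.31 in WT LPS. In KO-labelled cells it was 55.4, 52.2 and 54.6 CPM in PBS and 4.17, 4.71 and 4.42 in LPS. The 4 groups do not overlap, and KO LPS was the lowest. The log2 fold change was -2.91 ± 0.08 (SE) in WT, or 7.52-fold lower, with an adjusted p of 1.3e-15, and -3.61 ± 0.09 in KO-labelled cells, or 12.2-fold lower. The fall was larger in KO-labelled cells by 0.70 on the log2 scale, with an interaction of -0.70 ± 0.12 and an adjusted p of 0.00099.

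The enzymes of the mevalonate arm did not move together. Hmgcs1, the synthase of HMG-CoA, rose under LPS in both labels. It measured 116, 115 and 112 CPM in WT PBS, 148, 147 and 145 in WT LPS, 101, 92.5 and 91.3 in KO PBS and 196, 182 and 189 in KO LPS. The rise was 0.36 ± 0.05 on the log2 scale in WT, which turned to -0.31 under library totals alone, and 0.99 ± 0.06 in KO-labelled cells, with an interaction of 0.63 ± 0.08 and an adjusted p of 4.3e-05. Idi1, the isopentenyl diphosphate isomerase, rose by 1.15 ± 0.12 in KO-labelled cells and was 0.28 ± 0.13 in WT (adjusted p 0.06), and this difference passed the interaction test at an adjusted p of 0.0032. In WT it passed at 0.0089 to 0.048 in 5 fits that left out 1 library (WT PBS replicate 2, WT LPS replicate 2 or any KO PBS library), and at 0.030 and 0.029 with RLE scaling and DESeq2, while totals alone gave -0.39. Mvd, which removes a carboxyl group to make isopentenyl diphosphate, was the member of the arm that fell most in WT. It went from 35.1, 33.5 and 35.4 CPM to 14.4, 12.01 and 12.1 in WT, and from 17.01, 16.8 and 17.5 to 10.99, 11.3 and 8.95 in KO-labelled cells. The KO PBS libraries thus already lay below all WT PBS libraries, and the fall was smaller in KO-labelled cells (interaction 0.72 ± 0.13, adjusted p 0.001).

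The kinase Mvk fell alike in size, by 0.86 ± 0.12 on the log2 scale in WT and by 0.87 ± 0.12 in KO-labelled cells. The next kinase, Pmvk, did not pass in either label, at -0.21 ± 0.10 and 0.07 ± 0.10, though the WT value passed as lower without WT PBS replicate 3 or WT LPS replicate 3 (adjusted p 0.025 and 0.034), with no filter or a filter of 10 counts in every library (0.045 and 0.032), and under upper-quartile scaling and totals alone (-0.52 and -0.87). The KO-labelled value was also lower under those scalings (-0.29 and -0.73). Acat2, the cytosolic thiolase of the first step, was -0.49 ± 0.10 in WT and 0.28 ± 0.11 in KO-labelled cells, and the latter call was lost in 4 of the fits that left out 1 library (PBS replicates 1 and 2 and LPS replicates 1 and 3 of KO-labelled cells), at adjusted p values of 0.063 to 0.17, and with no filter on low counts, with at least 10 counts required in every library and with only the compared libraries (0.10, 0.071 and 0.052). Fdps, the farnesyl diphosphate synthase, was -0.02 ± 0.06 and 0.36 ± 0.06, and its WT value passed as lower under upper-quartile scaling (-0.33) and totals alone (-0.69). The KO-labelled rise of Fdps lost its call under upper-quartile scaling (0.0051) and turned to -0.44 under totals alone. Ggps1, which makes geranylgeranyl diphosphate for protein prenylation and does not lead to sterol, rose in both labels, by 0.61 ± 0.09 and 0.80 ± 0.08, although both values turned slightly negative under totals alone (-0.05 and -0.0016).

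After farnesyl diphosphate, the enzymes around squalene moved apart. Sqle, the squalene epoxidase and a known control point, fell in WT from 86.1, 87.1 and 84.9 CPM to 44.9, 37.3 and 38.6. In KO-labelled cells it measured 64.1, 62.2 and 60.2 CPM in PBS and 54.9, 52.4 and 59.9 in LPS. All 3 KO LPS libraries lay above all 3 WT LPS libraries, although KO PBS lay below WT PBS. The log2 fold change was -1.10 ± 0.07 in WT and -0.16 ± 0.07 in KO-labelled cells (adjusted p 0.052; -0.52 and -0.96 with upper-quartile scaling and totals alone, which passed), with an interaction of 0.94 ± 0.10 and an adjusted p of 1.3e-05. Lss, the lanosterol synthase of the next step, fell in both labels, by 0.89 ± 0.09 and 0.72 ± 0.10, and its interaction of 0.17 ± 0.13 did not pass. Fdft1, the squalene synthase, rose by 0.63 ± 0.06 and 0.94 ± 0.06, the former turning to -0.03 under totals alone.

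Among the enzymes that trim lanosterol to cholesterol, several held or lost ground in WT and rose in KO-labelled cells. Cyp51, the lanosterol demethylase, was at 96.9, 99.2 and 95.4 CPM in WT PBS and 99.8, 99.4 and 95.7 in WT LPS. It went from 69.97, 67.8 and 66.6 CPM in KO PBS to 128, 116 and 118 in KO LPS. The WT groups overlap under TMM scaling, although LPS was lower in WT under upper-quartile scaling (-0.29) and totals alone (-0.65). In these TMM-scaled values the KO LPS libraries are the highest of all 12, a ranking that does not carry over to totals alone. The interaction was 0.81 ± 0.08, with an adjusted p of 5.1e-06, and the rise in KO-labelled cells (0.82 ± 0.06) came to 0.02 under totals alone. Hsd17b7, the ketoreductase of the demethylation complex, had the largest positive interaction of the enzymes, at 1.01 ± 0.15 with an adjusted p of 0.00021. Its level rose from 17.2, 18.5 and 17.4 CPM to 27.1, 20.1 and 23.4 in WT, and from 12.2, 10.8 and 10.7 to 30.01, 26.7 and 33.6 in KO-labelled cells. The WT rise (0.41 ± 0.10) turned to -0.26 under totals alone. Msmo1, the methylsterol oxidase of the same complex, was -0.26 ± 0.05 in WT and 0.49 ± 0.05 in KO-labelled cells, with an interaction of 0.75 ± 0.08, and the latter turned to -0.31 under totals alone. Nsdhl, its dehydrogenase, was -0.27 ± 0.07 and -0.09 ± 0.07, the latter passing as lower under upper-quartile scaling (-0.45) and totals alone (-0.89), and the interaction of 0.18 ± 0.10 did not pass.

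Sc5d, the lathosterol desaturase, was -0.33 ± 0.06 in WT and 0.28 ± 0.06 in KO-labelled cells, with an interaction of 0.62 ± 0.09, and the latter turned to -0.0715 under upper-quartile scaling and -0.52 under totals alone. Ebp, the sterol isomerase, went the other way. It fell from 48.7, 52.3 and 49.9 CPM to 43.3, 44.98 and 41.4 in WT and from 45.2, 45.4 and 47.6 to 29.4, 31.7 and 29.8 in KO-labelled cells, with an interaction of -0.38 ± 0.09. Ebp and Dhcr7 were the 2 enzymes with a negative interaction that passed. Tm7sf2 and Lbr encode reductases for the same sterol step: Tm7sf2 fell in both labels, by 0.56 ± 0.14 and 0.65 ± 0.17, while Lbr passed in neither, at -0.12 ± 0.10 and 0.14 ± 0.10. Under upper-quartile scaling and totals alone Lbr was lower in both, at -0.43 and -0.78 in WT and -0.22 and -0.67 in KO-labelled cells.

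Tested as a difference of responses, 11 enzymes had a more positive LPS response in KO-labelled cells and 2 a more negative one, out of 20, while 9.78% of tested genes had a positive and 8.26% a negative interaction past the threshold. Over the 32 members these counts were 14 and 6. The enzyme median of the interaction was 0.34 on the log2 scale against 0.01 for all tested genes. No interaction that passed changed sign under another scaling (those of Nr1h2 and Insig2, which did not pass, went from 0.06 and 0.05 to -0.08 and -0.09 under totals alone), and Fdft1 and Insig1 lost their call under totals alone, at 0.17 and 0.21. The interaction of Fdft1 (0.31 ± 0.08) was also lost without WT PBS replicate 1 or KO PBS replicate 3, at adjusted p values of 0.072 and 0.077.

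**Figure D2:**
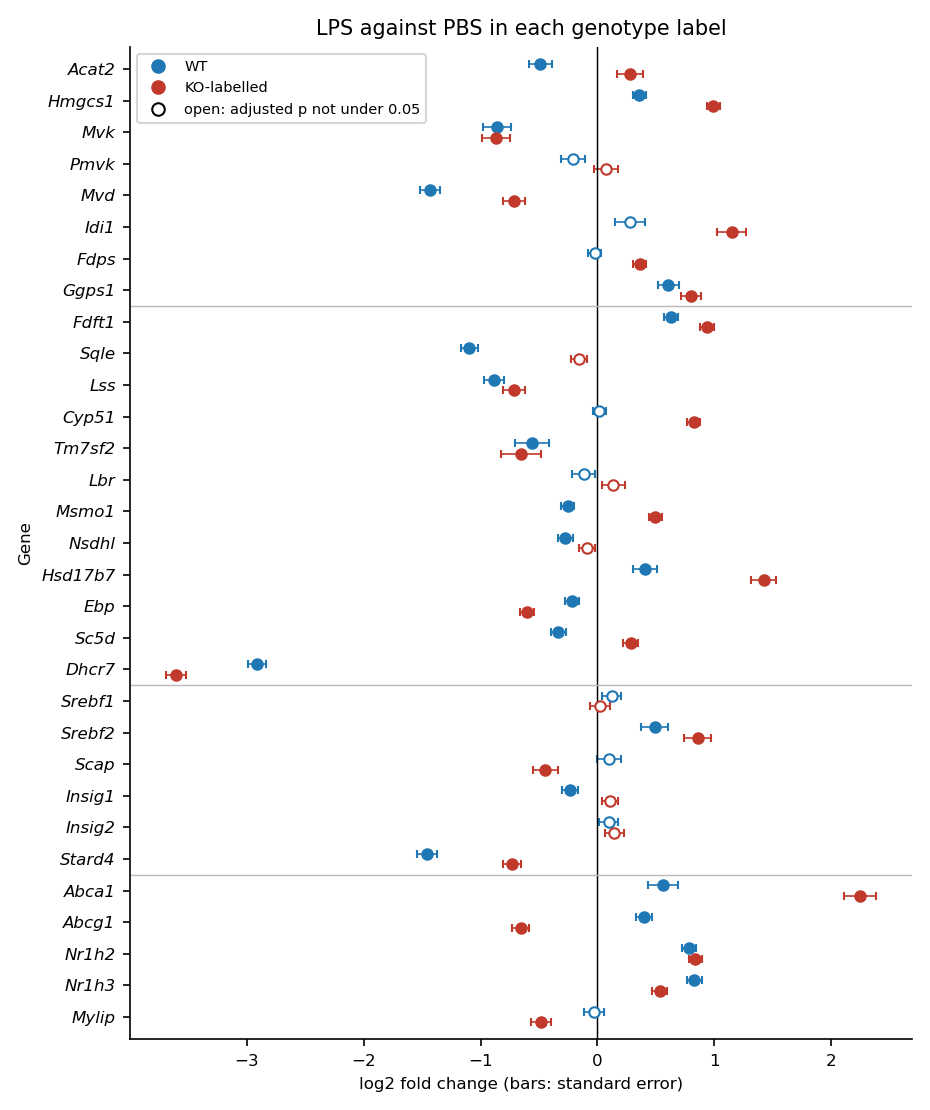
Log2 fold change of LPS against PBS with its SE for 31 members (Ch25h is off this scale), in WT and in KO-labelled cells; filled points passed an adjusted p of 0.05, and grey lines divide the roles. Dhcr7 is lowest in both labels and Abca1 highest in KO-labelled cells; under library totals alone, positive values below about the size of the shift (-0.66 in WT, -0.80 in KO-labelled cells) turn negative.

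Before LPS, the synthesis genes were lower in KO-labelled cells. Of the 20 enzymes, 16 were lower than in WT PBS, Ggps1 was higher, and Idi1, Lbr and Ebp did not pass; the enzyme median was -0.37 on the log2 scale against 0.00 for all tested genes, and no scaling tried turned the direction of a gene that passed. Over all 32 members 20 were lower and 1 higher, where 13.0% of all tested genes were lower and 12.3% higher. Mvd differed most among the enzymes, at -1.02 ± 0.08 (adjusted p 1.7e-07), then Acat2 at -0.90 ± 0.10 and Lss at -0.72 ± 0.08. Calls of Mvk, Pmvk, Fdft1 and Nsdhl were lost when single libraries were left out, at adjusted p values up to 0.20, 0.14, 0.078 and 0.053, and that of Mvk also under totals alone (0.057) and with DESeq2 (0.053). With only the compared libraries fitted, Ebp (-0.13, adjusted p 0.034), Srebf2 (-0.24, adjusted p 0.00010) and Stard4 (-0.17, adjusted p 0.024) passed as lower too.

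Fibroblast markers moved with the genotype label: the 5 markers summed to 75.1 to 88.6 CPM in WT PBS, 32.9 to 46.2 in KO PBS, 118 to 132 in WT LPS and 57.0 to 69.5 in KO LPS. The 5 skeletal muscle markers summed to 17.2 to 22.6 CPM in WT PBS, 0.319 to 19.6 in KO PBS, 28.7 to 33.6 in WT LPS and 0.428 to 0.684 in KO LPS. The part of these cells in the lower enzyme levels was not tested. The 6 mesothelial markers summed to 9.08 to 9.72 CPM in WT PBS and 4.85 to 7.21 in KO PBS. Under LPS these sums were 9.19 to 11.2 CPM in WT and 6.08 to 9.02 in KO-labelled cells. The B cell marker Ms4a1 and the T cell markers Cd3e and Cd3d averaged under 0.1 CPM in every group. The whole B cell list summed to 1.65 to 1.92 CPM in WT PBS and 1.23 to 1.86 in KO PBS. Under LPS that list was at 0.636 to 0.846 CPM in WT and 0.311 to 0.735 in KO-labelled cells. The T cell list reached 8.39 to 13.04 CPM in WT LPS through Lck, against 3.73 to 4.28 in KO LPS. Neutrophil, eosinophil and mast cell lists summed to at most 16.1, 3.54 and 3.44 CPM, the mast cell list being at 1.02 to 1.37 in WT LPS and 2.82 to 3.44 in KO LPS. In bulk RNA, fewer cells of a type and less RNA per cell cannot be told apart.

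Under LPS the label difference split the enzymes. Compared with WT LPS, 9 were higher in KO LPS (Hmgcs1, Idi1, Ggps1, Sqle, Cyp51, Lbr, Msmo1, Hsd17b7 and Sc5d), 6 were lower (Mvd, Fdps, Lss, Tm7sf2, Ebp and Dhcr7) and 5 did not pass, and no scaling turned the direction of a gene that passed. Over the 32 members 10 were higher and 13 lower, and the background was 22.1% higher and 19.3% lower. Idi1 was the enzyme with the largest positive difference, at 0.72 ± 0.13, and Dhcr7 the one with the largest negative difference, at -1.20 ± 0.10 (adjusted p 3e-07). Without WT LPS replicate 1 the split over the members was 12 and 11, and Mvd no longer passed (-0.21, adjusted p 0.11), as also without KO LPS replicate 3 (-0.20, adjusted p 0.13) and with only the compared libraries fitted (-0.31, adjusted p 0.078). Lbr and Hsd17b7 were lost when replicate 2 of WT LPS or replicate 3 of KO LPS was left out (adjusted p 0.057 to 0.063), Lbr also under totals alone (0.26, adjusted p 0.053), where Nsdhl passed as lower (-0.19, adjusted p 0.048), and Tm7sf2 without KO LPS replicate 2 (adjusted p 0.053). Mvk, counted as not passing (adjusted p 0.055), passed as lower with upper-quartile scaling (-0.41, adjusted p 0.020), totals alone, either other filter, DESeq2, a replicate block, and without WT LPS replicate 2 (-0.48, adjusted p 0.0046) or KO LPS replicate 3 (0.031). The comparisons of this and the preceding paragraphs share libraries, so their counts are not independent of each other.

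**Figure D3:**
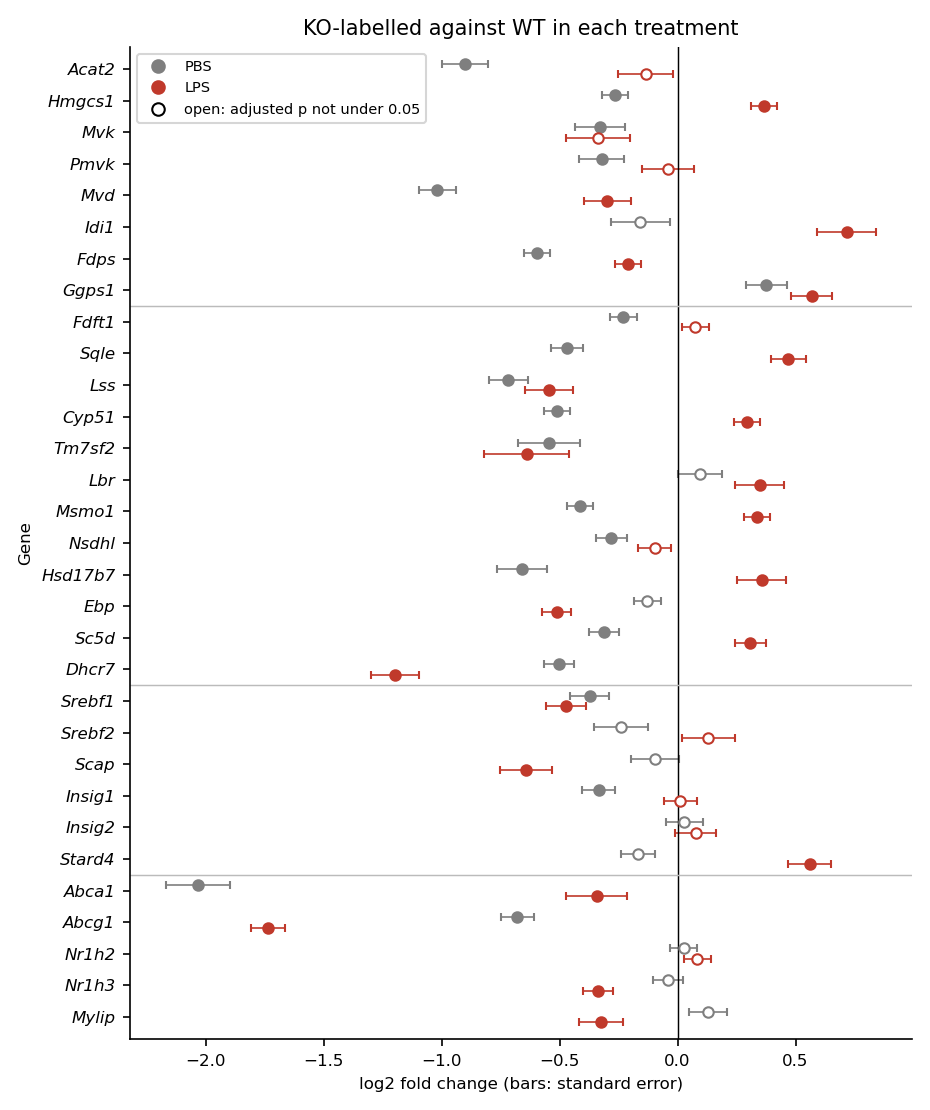
Log2 fold change of KO-labelled against WT cells with its SE for 31 members, in PBS and in LPS; filled points passed an adjusted p of 0.05. Most enzymes sit left of 0 in PBS, and under LPS 9 sit right of 0 and 6 left among those that passed; Abca1 is lowest in PBS (-2.03) and Abcg1 in LPS (-1.74).

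Some enzyme counts carry a further limit. The deposited counts of Acat2, Idi1, Ggps1, Fdft1, Cyp51, Sc5d and Mylip had decimals in 11 or 12 of the 12 libraries, which marks reads that were divided between genes, and their values are uncertain to that extent. Exons of Fdft1 overlap those of Ctsb on the opposite strand by up to 774 bases. Ctsb, a lysosomal protease of macrophages, averaged 17624 to 21171 CPM over the groups against 39.4 to 75.4 for Fdft1, and no source used here states that the counting used strand. Tm7sf2 shares up to 532 bases of exon with Vps51 on the same strand, and Vps51 averaged 33.1 to 46.4 CPM over the groups, above Tm7sf2 in each. Exons of Fdps overlap those of Gm43738 on the same strand by up to 197 bases. Cyp51, Ggps1, Lbr and Srebf1 overlap a gene on the opposite strand by 109 to 440 bases. The part of these overlaps in the values was not tested.

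In the sensing machinery, the mRNA for SREBP2 itself rose with LPS. Srebf2 measured 216, 196 and 203 CPM in WT PBS, 355, 239 and 269 in WT LPS, 166, 169 and 186 in KO PBS and 317, 288 and 340 in KO LPS. The rise was 0.49 ± 0.11 on the log2 scale in WT and 0.86 ± 0.11 in KO-labelled cells. Under totals alone these were -0.18 and 0.06, the latter no longer past the threshold (adjusted p 0.62), and under upper-quartile scaling the WT rise did not pass either (0.17, adjusted p 0.12). WT LPS replicate 1 was the highest of its group. With it, the interaction of 0.37 ± 0.16 did not pass (adjusted p 0.14), and without it the interaction was 0.55 at an adjusted p of 0.00048. Srebf1, whose protein SREBP1 drives fatty acid synthesis, did not pass with LPS in either label (0.12 ± 0.08 and 0.02 ± 0.08), but passed as lower under upper-quartile scaling (-0.19 in WT and -0.34 in KO-labelled cells) and totals alone (-0.54 and -0.78). It was lower in KO-labelled cells in PBS (-0.37 ± 0.08) and in LPS (-0.47 ± 0.08).

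Scap, the escort of SREBP, was -0.45 ± 0.11 under LPS in KO-labelled cells and 0.10 ± 0.10 in WT (-0.22 and -0.57, both passing, with upper-quartile scaling and totals alone), with an interaction of -0.54 ± 0.15 whose call was lost without WT PBS replicate 2 (adjusted p 0.051). Insig1, a sterol-regulated anchor that retains SCAP, was -0.24 ± 0.07 in WT and 0.11 ± 0.07 in KO-labelled cells, the latter turning to -0.25 and -0.69 under the same scalings. Its interaction of 0.35 ± 0.10 had an adjusted p of 0.022, which rose to between 0.050 and 0.079 in 8 of the fits that left out 1 library (any WT PBS library, WT LPS replicate 3, and replicates 1 and 2 of KO PBS and 1 and 3 of KO LPS). Insig2 did not pass in any comparison under TMM scaling, but with upper-quartile scaling and totals alone it passed as lower under LPS in WT (-0.21 and -0.57) and in KO-labelled cells (-0.21 and -0.66). It stayed between 12.3 and 15.1 CPM (TMM-scaled) in all libraries. Stard4, a cytosolic carrier that moves sterol between membranes, fell in both labels, from 27.8, 27.8 and 27.7 CPM to 10.6, 9.51 and 10.2 in WT and from 26.4, 23.1 and 24.7 to 15.5, 13.3 and 15.8 in KO-labelled cells. PBS and LPS libraries did not overlap. Its fall was smaller in KO-labelled cells (-0.73 ± 0.08 against -1.46 ± 0.08, interaction 0.73 ± 0.12 with an adjusted p of 0.00042).

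Among the LXR and efflux genes, the exporters Abca1 and Abcg1 had wide label differences and the others small ones. Of these 5 genes, 4 rose with LPS in WT (Abca1, Abcg1, Nr1h2 and Nr1h3), of which Abca1 and Abcg1 turned lower under totals alone and did not pass under upper-quartile scaling (0.25 and 0.09), and none fell under TMM scaling; 36.5% of all tested genes rose. The remaining one, Mylip, passed as lower in WT under upper-quartile scaling (-0.34) and totals alone (-0.69). In KO-labelled cells 3 rose (Abca1, Nr1h2 and Nr1h3, of which, under totals alone, Nr1h3 turned lower and Nr1h2 lost its call at 0.04) and 2 fell (Abcg1 and Mylip), where 38.8% of all tested genes rose and 41.1% fell. Against WT, 2 were lower in KO PBS and 4 in KO LPS, and none was higher, against 13.0% and 19.3% of tested genes lower. Fibroblast markers were also lower in KO-labelled libraries, and muscle markers under LPS, while in PBS the muscle sums of the labels overlapped. The part of these markers was not tested here either.

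Abca1 (chr4:53030789-53159988) encodes the transporter that loads lipid-poor apolipoprotein with cholesterol. It measured 89.9, 85.5 and 94.9 CPM in WT PBS and 18.3, 21.9 and 25.8 in KO PBS. Under LPS it measured 156, 120 and 122 CPM in WT and 109, 88.4 and 116 in KO-labelled cells. The PBS groups are far apart and the LPS groups are close without overlapping. In PBS the difference was -2.03 ± 0.14 on the log2 scale, or 4.09-fold lower in KO-labelled cells, with an adjusted p of 2.8e-07. In LPS it was -0.34 ± 0.13 with an adjusted p of 0.047, and -0.21 with an adjusted p of 0.22 without WT LPS replicate 1. That call was also lost in 6 other fits that left out 1 library (any WT PBS library, KO PBS replicate 2, and replicates 1 and 2 of KO LPS), at adjusted p values of 0.057 to 0.17, and with no filter on low counts (0.092). The LPS response was 0.56 ± 0.13 in WT and 2.25 ± 0.14 in KO-labelled cells, with an interaction of 1.69 ± 0.19 and an adjusted p of 4.8e-05.

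Abcg1 (chr17:31057694-31117984), which passes cholesterol on to high-density lipoprotein, moved in opposite directions under LPS. It rose from 162, 160 and 164 CPM to 231, 201 and 209 in WT, and fell from 96.8, 102 and 104 to 62.4, 58.8 and 71.1 in KO-labelled cells. No groups overlap. The log2 fold changes were 0.40 ± 0.07, which turned to -0.26 under totals alone, and -0.66 ± 0.07, and the interaction was -1.06 ± 0.10 with an adjusted p of 4.1e-06. Under LPS the KO-labelled level was 3.33-fold lower than in WT, at -1.74 ± 0.07 (adjusted p 8.4e-11).

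The receptors themselves differed less. Nr1h2, LXRβ, rose with LPS by 0.78 ± 0.06 in WT and 0.84 ± 0.06 in KO-labelled cells. Nr1h3, LXRα, rose from 49.9, 47.4 and 47.5 CPM to 90.0, 82.5 and 84.4 in WT and from 43.4, 47.4 and 49.8 to 67.8, 70.4 and 65.2 in KO-labelled cells. The LPS groups of Nr1h3 do not overlap, and KO LPS was lower by 0.34 ± 0.06; its interaction of -0.29 ± 0.09 (adjusted p 0.033) did not pass in 7 of the fits that left out 1 library (replicates 2 and 3 of WT PBS and of KO PBS, WT LPS replicate 3, and replicates 1 and 3 of KO LPS), at adjusted p values of 0.054 to 0.083. Mylip, an LXR-induced ubiquitin ligase that marks lipoprotein receptors for degradation, was -0.03 ± 0.09 in WT and -0.48 ± 0.09 in KO-labelled cells. Its interaction of -0.46 ± 0.12 (adjusted p 0.018) was lost without WT LPS replicate 3, at 0.055, as was its lower level in KO LPS (-0.33 ± 0.09), at 0.066.

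**Figure D4:**
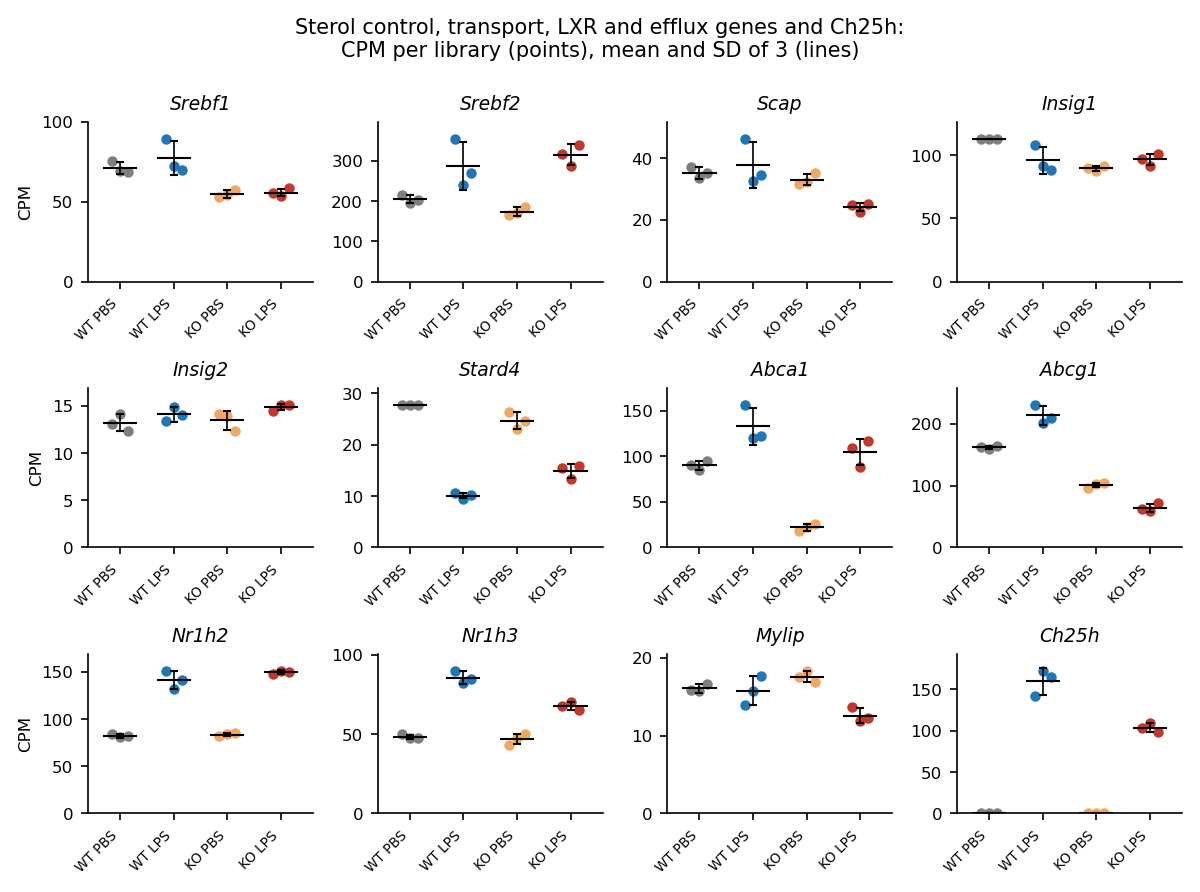
CPM (TMM-scaled) of the 12 genes of sterol control, transport, LXR and efflux and of Ch25h on linear axes from 0; points are libraries, bars the mean and SD of 3. Abca1 is lowest in KO PBS and Abcg1 in KO LPS, and Ch25h lies near 0 in all PBS libraries; under library totals alone the rises of Srebf2, Abca1 and Abcg1 in WT and of Nr1h3 in KO-labelled cells turn lower.

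Ch25h (chr19:34473783-34475148) was the member that LPS raised most. The enzyme hydroxylates cholesterol to an oxysterol that blocks SREBP2 processing and activates LXR. It had 8, 1 and 1 counts in WT PBS and 3, 4 and 5 in KO PBS, and 2450, 3028 and 2918 in WT LPS and 1688, 1776 and 1581 in KO LPS. The PBS libraries lay near the limit of 3 counts, so that a fitted fold change depends on the prior count. The lowest LPS library exceeded the highest PBS library 490-fold in WT and 555-fold in KO-labelled cells, in CPM. Under LPS the KO-labelled libraries (104, 109 and 98.3 CPM) all lay below the WT libraries (142, 172 and 165), at -0.62 ± 0.10 and an adjusted p of 9.3e-05.

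The mean log2(CPM + 1) of the 20 enzymes and of the 5 LXR and efflux genes was set side by side in each library. For the enzymes it was 5.07 ± 0.02 (SD, n = 3) in WT PBS, 4.72 ± 0.05 in WT LPS, 4.69 ± 0.01 in KO PBS and 4.73 ± 0.03 in KO LPS. For the LXR and efflux genes it was 5.99 ± 0.03, 6.49 ± 0.07, 5.48 ± 0.08 and 5.97 ± 0.06 in the same order. The WT PBS libraries thus had the highest enzyme means, under every scaling tried, and the other 3 groups overlapped in them under TMM scaling. Under totals alone the enzyme means were 4.42 in WT LPS and 4.35 in KO LPS, below the 5.07 of KO PBS. The enzyme mean minus the LXR mean was -0.92 ± 0.05 in WT PBS, -1.77 ± 0.03 in WT LPS, -0.78 ± 0.09 in KO PBS and -1.24 ± 0.05 in KO LPS. It fell with LPS in both labels, and no LPS library reached any PBS library. The difference weighs each gene alike and compares levels within a library, not rates of synthesis or efflux.

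**Figure D5:**
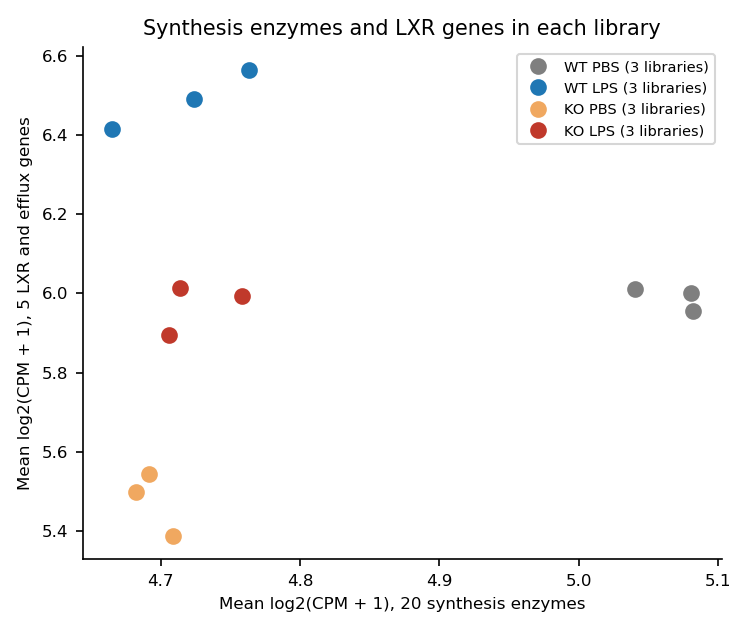
Mean log2(CPM + 1) of the 20 synthesis enzymes (x axis) and of the 5 LXR and efflux genes (y axis) in each of the 12 libraries. WT PBS libraries lie apart at enzyme means of 5.04 to 5.08, and the other groups, at 4.66 to 4.76, are separated along the y axis, KO PBS lowest and WT LPS highest; under library totals alone KO LPS is lowest and WT PBS highest on it.

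Genes around the pathway were taken from 7 further lists, whose counts are under TMM scaling; other scalings were not tried on them. Fatty acid synthesis under SREBP1 was the list with calls in 1 direction only in WT: 9 of its 12 genes fell with LPS and none rose, where 40.2% of all tested genes fell and 36.5% rose. Scd2, a stearoyl-CoA desaturase, had a log2 fold change of -4.03 ± 0.11, and Elovl5, a fatty acid elongase, of -2.03 ± 0.06. In KO-labelled against WT cells, 10 of the 12 were lower in PBS and 9 in LPS, none higher, and the list medians were -0.46 and -0.51 against 0.00 over all tested genes in each, of which 13.0% and 19.3% were lower. Fads1, a fatty acid desaturase, was -1.10 ± 0.11 under LPS and Scd2 -1.08 ± 0.15. Fibroblast markers were lower in KO-labelled libraries too, and muscle markers under LPS, while in PBS the muscle sums of the labels overlapped. The part of these markers in these differences, and in those of the lists that follow, was not tested.

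Of the 9 tested further LXR targets, 4 rose and 2 fell with LPS in WT against background shares of 36.5% and 40.2%. Under LPS 7 were lower and none higher in KO-labelled cells, where 19.3% of tested genes were lower and 22.1% higher. In PBS 5 were already lower and 1 higher than in WT, against 13.0% and 12.3% of tested genes. Tgm2, a transglutaminase, rose by 2.86 ± 0.09 in WT. Mertk, a receptor for apoptotic cells, was the furthest below WT under LPS, at -1.24 ± 0.07 (adjusted p 1.9e-09). Scd2, also on this list, is given above. Among the 9 genes of SREBP processing and its ubiquitin ligases 4 rose and 2 fell with LPS in WT, against shares of 36.5% and 40.2%. Rnf145 was at 2.43 ± 0.06 and Rnf139 at 1.79 ± 0.08, both ligases of the endoplasmic reticulum. Under LPS 4 were higher and 1 lower in KO-labelled cells, with Erlin1 at 0.39 ± 0.07 and Ubxn8 at 0.37 ± 0.07.

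Of 7 tested genes of sterol uptake 2 rose and 4 fell with LPS in WT, against 36.5% and 40.2% of all tested genes. Olr1, a receptor for oxidised lipoprotein, rose by 3.79 ± 0.09, and Lrp8, a lipoprotein receptor, was -2.81 ± 0.16. Under LPS Olr1 was higher in KO-labelled cells, at 0.89 ± 0.06, and Scarb1, the receptor for high-density lipoprotein, lower, at -0.66 ± 0.08. Of 14 genes of sterol transport and ester storage 5 rose and 8 fell in WT, set against the same shares. Gramd1a, which carries sterol from the plasma membrane, rose by 3.36 ± 0.07, and Stard3, a late endosome carrier, by 2.29 ± 0.06. Under LPS 1 of the 14 was higher and 5 were lower in KO-labelled cells (22.1% and 19.3% of all tested genes), with Stard5 at -0.57 ± 0.06 and the lysosomal lipase Lipa at -0.39 ± 0.06.

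Of 4 tested genes of oxysterol metabolism and sensing, 1 rose and 3 fell with LPS in WT, where 36.5% of all tested genes rose and 40.2% fell. Gpr183, a receptor for oxysterols, had a log2 fold change of -4.57 ± 0.25. Its mean was at most 0.267 CPM in either LPS group, near the limit of 3 counts, so that this value depends on the prior count. Hsd3b7, which inactivates oxysterols on the way to bile acids, was at -2.18 ± 0.07. Under LPS 3 of the 4 were lower in KO-labelled cells (19.3% of all tested genes), with Cyp27a1, a sterol hydroxylase, at -1.01 ± 0.17 and Hsd3b7 at -0.26 ± 0.08. In the use of the isoprenoid branch, 4 of 10 genes rose and 4 fell in WT, close to those background shares, with Pdss1, of ubiquinone synthesis, at 2.47 ± 0.13 and the prenyltransferase subunit Rabggta at -0.96 ± 0.10. Under LPS 3 were higher and none lower in KO-labelled cells (22.1% and 19.3% of all tested genes), with the prenyltransferase subunits Pggt1b at 0.35 ± 0.09 and Rabggtb at 0.31 ± 0.11.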

How the data were processed

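RNA of 12 libraries was sequenced as single-end reads of 50 bases on a BGISEQ-500. The deposited values are expected counts per gene, with decimals in 24.6% to 26.9% of values. The submitters' processing notes name Bowtie2, RSEM 1.3.1 and GRCm38.p6, whereas the study's methods name STAR and HTSeq; HTSeq gives whole counts. The sources also differ on the agent that elicited the cells (starch broth or thioglycollate). Counts were rounded and tested with edgeR 4.0.16 (R 4.3.3): filterByExpr, TMM, 1 robust quasi-likelihood model of the 4 groups, 5 contrasts including the interaction, Benjamini-Hochberg over 12064 genes at 0.05. CPM use TMM-scaled totals; 3 counts, the limit that a count of 0 allows, are 0.105 to 0.187 CPM, and limits cover counting error only. In simulated counts, 200 genes were changed by 1 log2 unit in WT LPS alone, as many raised as lowered. The test recovered 84.5% of them for LPS in WT and 77% for the interaction. That setting held no broad shift between PBS and LPS and no smaller change, so it does not bear on those. The members and lists were chosen with earlier results of these data known. Named are all members and, in each further list, for LPS in WT and for KO against WT under LPS, the 2 largest changes past the threshold at 5 CPM or more in the higher group. Alternatives were other scalings, filters, DESeq2 1.42.0, fits of the compared libraries, a replicate block and leaving out each library. P-values measure the spread between these libraries.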

Additional observations from a re-analysis of the deposited data

Results flagged for a closer look

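The response to LPS differed between the genotype labels in 20 of the 32 genes by a test of the difference itself (the interaction in the edgeR model), 14 positive and 6 negative, where 9.78% of all tested genes had a positive and 8.26% a negative interaction that passed. Values are log2 differences, KO-labelled minus WT. In the mevalonate arm they were 0.76 for Acat2, 0.63 for Hmgcs1, 0.72 for Mvd, 0.87 for Idi1 and 0.38 for Fdps. From squalene to cholesterol they were 0.31 for Fdft1, 0.94 for Sqle, 0.81 for Cyp51, 0.75 for Msmo1, 1.01 for Hsd17b7, 0.62 for Sc5d, -0.38 for Ebp and -0.70 for Dhcr7. In sterol control and transport they were -0.54 for Scap, 0.35 for Insig1 and 0.73 for Stard4. Among LXR and efflux genes they were 1.69 for Abca1, -1.06 for Abcg1, -0.29 for Nr1h3 and -0.46 for Mylip.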

How the results depend on the processing

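Of 160 results (32 genes in 5 comparisons), 104 kept their call, and their direction where they passed, under every alternative other than a fold threshold, and 40 with it. A reversal is counted where the value or its alternative passed, and each of these came with 2 scalings in the LPS comparisons. A further 15 results, of at most 0.22 in size, changed sign under some alternative while passing in neither fit, 11 of them with 1 library left out. With upper-quartile scaling the reversals were, for WT, Cyp51 -0.29, Srebf1 -0.19, Scap -0.22 and Insig2 -0.21, and, for KO-labelled cells, Acat2 -0.081, Pmvk -0.29, Lbr -0.22, Sc5d -0.0715, Srebf1 -0.34, Insig1 -0.25 and Insig2 -0.21. With library totals alone they were, for WT, Hmgcs1 -0.31, Idi1 -0.39, Ggps1 -0.055, Fdft1 -0.033, Cyp51 -0.65, Hsd17b7 -0.26, Srebf1 -0.54, Srebf2 -0.18, Scap -0.57, Insig2 -0.57, Abca1 -0.11 and Abcg1 -0.26, and, for KO-labelled cells, Acat2 -0.52, Pmvk -0.73, Fdps -0.44, Ggps1 -0.0016, Lbr -0.67, Msmo1 -0.31, Sc5d -0.52, Srebf1 -0.78, Insig1 -0.69, Insig2 -0.66 and Nr1h3 -0.27. These scalings shift all genes of a comparison by about the same amount. Counts of members higher and lower for LPS in WT moved from 10 and 13 to 5 and 21 (upper quartile) and 3 and 25 (totals), and in KO-labelled cells from 15 and 10 to 17 lower (upper quartile) and to 6 and 22 (totals). With a change of more than 1 log2 unit required, fewer genes pass by construction: 5 for LPS in WT (1 higher, 4 lower), 5 in KO-labelled cells (4 and 1), 2 for the labels in PBS (0 and 2), 2 in LPS (0 and 2) and 3 interactions (2 and 1). The share of all tested genes past this fold threshold was not counted, so these numbers cannot be called few or many.

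Sqle under LPS in KO-labelled cells, at an adjusted p of 0.052, passed with upper-quartile scaling (-0.52), with totals alone (-0.96), and at 0.013 to 0.049 in 8 fits with another filter, only the compared libraries or 1 library left out. Leaving out single libraries reversed no result that passed. Without WT LPS replicate 1, Srebf2 passed for the labels in PBS (-0.24, adjusted p 0.0082, and 0.00010 with only the compared libraries) and in LPS (0.31, adjusted p 0.0022), and Nr1h2 in LPS (0.14, adjusted p 0.043). Deviations of libraries with the same number correlated between -0.26 and 0.25 over 18 pairs, and with other numbers between -0.36 and 0.39 over 36. Between PBS and LPS of WT, same-number pairs were at 0.21, 0.22 and -0.04, and the others between -0.30 and 0.18. In KO-labelled cells same-number pairs were at 0.04, 0.14 and 0.11, and the others between -0.11 and -0.0062. These values do not settle whether the replicate numbers pair PBS and LPS libraries. With a replicate block the counts were 10 and 13, 15 and 10, 1 and 20, 10 and 14, and 14 and 6, and the added call was Mvk under LPS (-0.33, adjusted p 0.049), which also passed with upper-quartile scaling (0.020), totals alone (0.016), no filter (0.049), 10 counts in every library (0.045) and DESeq2 (0.049). Depth limits Ch25h in PBS, at 1 to 8 counts per library.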

Other observations

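Per kilobase of exon (the union of all annotated exons of a gene, in GENCODE M21), levels within WT PBS ran from 1.15 CPM for Tm7sf2 to 36.5 for Insig1 among the members other than Ch25h. Srebf2 at 28.5, Hmgcs1 at 24.8, Nr1h2 at 24.5, Msmo1 at 22.3, Abcg1 at 22.2 and Cyp51 at 22.01 followed Insig1. In KO LPS the highest values were 44.6 for Nr1h2, 43.8 for Srebf2 and 41.1 for Hmgcs1, besides 74.7 for Ch25h, and Dhcr7 stood at 0.762.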
